A study of Mus musculus with 8 samples.

Results

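Potassium channel genes were followed in hippocampal RNA from Nr2f1 heterozygous knockout mice and wild-type (WT) mice. They were taken as every gene in the count table whose symbol has the form Kcn, a family letter or letters and a number; 2 further symbols of that form were left out by the rule. This gave 89 genes of 37310 in the table, and 78 of the 89 had enough reads to be tested. By symbol they fell into 40 pore-forming subunits of voltage-gated (Kv) channels, 10 auxiliary subunits of Kv channels, 13 inward rectifiers (Kir), 14 leak channels of the K2P family, 9 calcium-activated channel genes and 3 sodium- or pH-activated relatives of the large-conductance channel.

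The heterozygote group held 4 mice with a disrupted copy of Nr2f1, and the WT group 4 mice with none. Both groups were F1 hybrids of B6 and 129, were 3 months old and carried no other allele or treatment that the labels name. Each library came from the hippocampus of its own animal, so the p-values below measure the spread between animals of a genotype. The knockout is not restricted to a cell type by anything in the labels, and RNA of whole hippocampus mixes neurons, glia, vessels and the borders of the ventricle. A lower value of a gene in such RNA can come from fewer cells of a type or from less RNA per cell, which cannot be told apart.

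Libraries held 58717305 to 88831603 gene counts in heterozygotes and 76154175 to 90043971 in WT. Potassium channel genes took 0.505% to 0.523% of the counts of a heterozygote library and 0.521% to 0.532% of those of a WT library. All animals were labelled male, but Xist lay between 463 and 547 CPM (a read count relative to the TMM-normalised depth of its library) in heterozygotes and between 502 and 601 CPM in WT, and 14 Y-linked genes had 3 counts in all 8 libraries together. The spike-in mix differed between odd- and even-numbered libraries of both genotypes. Values within each mix are therefore given for most members whose library values are listed, but not for Kcnf1 and Kcnip3. Summed markers of the hippocampus were present in every library, at 632 to 721 CPM in heterozygotes and 745 to 793 CPM in WT for CA1, 269 to 316 and 285 to 315 CPM for CA3, and 189 to 244 and 181 to 240 CPM for dentate granule cells. Nr2f1 itself averaged 31.3 ± 2.16 CPM in heterozygotes and 52.2 ± 2.07 CPM in WT (SD, n = 4 each), or 60.1% of WT (edgeR adjusted p = 7.32e-05; exact two-sided permutation p = 0.0286, the smallest that 4 against 4 can give).

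Potassium channels let potassium ions leave or enter the cell down their gradient and so set the resting potential and end each action potential. Kv channels open on depolarisation and shape spike width and firing rate, Kir channels pass current best near rest, K2P channels carry a steady leak, and calcium-activated channels follow spikes with a hyperpolarisation. In the hippocampus the Kcnd channels with their Kcnip and dipeptidyl-peptidase-like partners carry the dendritic A-type current of pyramidal cells. Channels built with Kcnj3 open when G-protein-coupled receptors such as those for GABA and adenosine are activated.

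The start-site regions of the 3 members that the comparison turns on are printed here, from 250 bases before to 50 bases after an annotated RefSeq start on GRCm38.p6, because Nr2f1 encodes a nuclear receptor that binds repeats of AGGTCA. Kcnj3 and Kcnip4 passed the test between genotypes and Kcnj13 had the largest fold. Capitals mark AGGTCA or its reverse complement TGACCT, searched on both strands.
Kcnj3, chr2:55435720-55436019, plus strand: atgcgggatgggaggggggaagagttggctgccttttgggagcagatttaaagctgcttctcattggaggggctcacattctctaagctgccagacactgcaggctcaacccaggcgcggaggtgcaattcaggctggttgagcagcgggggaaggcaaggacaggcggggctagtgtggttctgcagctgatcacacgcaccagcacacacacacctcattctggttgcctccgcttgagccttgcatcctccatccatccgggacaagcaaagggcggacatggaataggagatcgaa
Kcnip4, chr5:49285610-49285909, minus strand: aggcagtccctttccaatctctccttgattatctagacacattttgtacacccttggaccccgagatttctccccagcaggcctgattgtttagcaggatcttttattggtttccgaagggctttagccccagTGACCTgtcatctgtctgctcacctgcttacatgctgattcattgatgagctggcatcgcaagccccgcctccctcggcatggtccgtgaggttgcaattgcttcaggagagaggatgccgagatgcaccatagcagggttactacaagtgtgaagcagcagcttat
Kcnip4, further start, chr5:48599633-48599932, minus strand: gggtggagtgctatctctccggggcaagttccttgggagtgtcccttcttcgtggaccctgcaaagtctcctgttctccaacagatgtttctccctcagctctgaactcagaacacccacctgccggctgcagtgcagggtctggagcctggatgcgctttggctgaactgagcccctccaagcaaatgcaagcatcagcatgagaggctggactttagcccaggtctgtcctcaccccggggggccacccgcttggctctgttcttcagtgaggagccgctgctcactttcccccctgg
Kcnj13, chr1:87394680-87394979, minus strand: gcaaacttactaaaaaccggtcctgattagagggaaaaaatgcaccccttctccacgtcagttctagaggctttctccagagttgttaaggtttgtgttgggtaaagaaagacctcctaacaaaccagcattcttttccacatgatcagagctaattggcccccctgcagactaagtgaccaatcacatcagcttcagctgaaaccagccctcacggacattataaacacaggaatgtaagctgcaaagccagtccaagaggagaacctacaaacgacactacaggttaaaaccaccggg
The first Kcnip4 window held TGACCT at position 134, counted from its 5′ end, and the other 3 windows held neither form. Base composition differed between them, at 57.7% G and C for Kcnj3, 51.0% and 59.7% for the Kcnip4 windows and 46.0% for Kcnj13. RefSeq windows were found for 65 of the 89 genes, 89 windows in all, and 6 of these (6.74%) held the motif, against 16.3% of 32851 windows of the same length over all genes. Member windows had a median of 58.3% G and C, against 52.7% over all windows, and some genes gave several windows. The part of base composition in the motif shares was not tested. A match describes letters and not a bound site.

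Per base of exon, a few subunits of neurons and glia made up much of the potassium channel RNA. Levels here are CPM per kilobase of exon, with exon lengths from GENCODE on GRCm38, a later build than the one used for counting, so they are approximate. Kcnab2, the beta subunit that attaches to Kcna channels and helps them reach the axon, stood highest at 133 ± 9.32 in heterozygotes and 145 ± 6.27 in WT (SD, n = 4 each). Kcnip2, the calcium-binding partner of Kcnd channels, came next at 72.5 ± 5.81 and 70.6 ± 5.54 in the same order. These 2 auxiliary subunits lay far above the median tested member.

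Lower levels of similar size were found for Kcna1 and Kcnj10, in a different order in each genotype. Kcna1, an axonal channel that limits repetitive firing, had 46.6 ± 2.24 CPM per kilobase in heterozygotes and 50.7 ± 0.639 in WT (SD, n = 4 each). Kcnj10, the inward rectifier by which astrocytes and oligodendrocytes take up potassium, had 48.9 ± 1.76 in heterozygotes and 45.1 ± 3.65 in WT. Kcnk1 was the most abundant K2P gene, at 42.6 ± 0.856 CPM per kilobase in heterozygotes and 41.9 ± 1.26 in WT. At the other end Kcnn4 had a mean of 0.0297 CPM per kilobase over the 8 libraries.

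**Figure D1:**
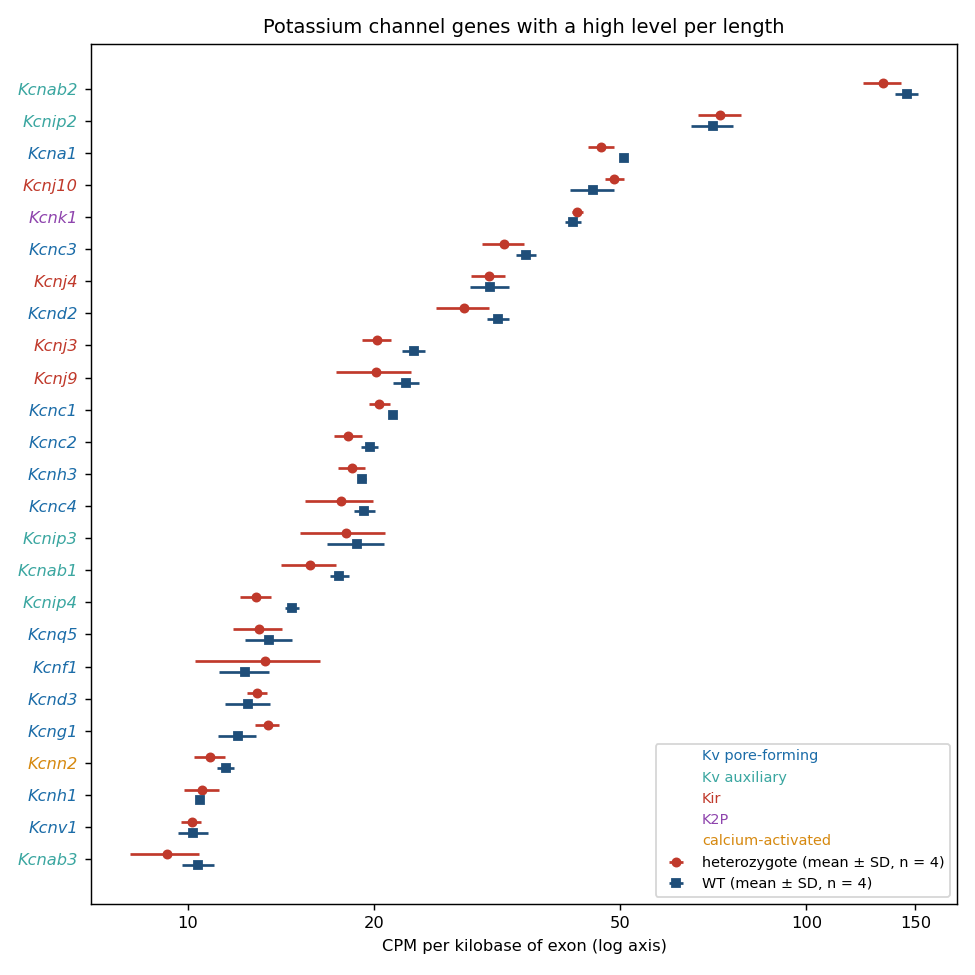
Mean level of 25 potassium channel genes among those with the highest level, in CPM per kilobase of exon (log axis), in heterozygotes and WT (n = 4 each, error bars SD), with gene names coloured by class. Kcnab2 stands highest at 133 in heterozygotes and 145 in WT, and for most genes the genotypes lie close together on this scale.

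The make-up of the pool by class was close in the genotypes. Kv pore-forming genes gave 42.2 ± 0.228% of the summed CPM per kilobase in heterozygotes and 42.7 ± 0.663% in WT, and Kv auxiliary genes 30.3 ± 1.04% and 31.0 ± 0.810% in that order. Kir genes gave 16.3 ± 0.616% in heterozygotes and 15.4 ± 0.646% in WT, and K2P genes 7.06 ± 0.184% and 6.78 ± 0.246%. Calcium-activated genes gave 2.70 ± 0.0381% in heterozygotes and 2.76 ± 0.0504% in WT, and the sodium- or pH-activated genes 1.36 ± 0.143% and 1.34 ± 0.0725% (SD, n = 4 each).

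The summed level of all 78 genes was 881, 872, 855 and 889 CPM per kilobase in heterozygote libraries 1 to 4 and 910, 913, 912 and 888 in WT libraries 1 to 4. Heterozygote library 4 and WT library 4 touched, and the other heterozygote libraries lay below every WT library. The mean was 874 ± 14.3 in heterozygotes and 906 ± 11.6 in WT (SD, n = 4 each).

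**Figure D2:**
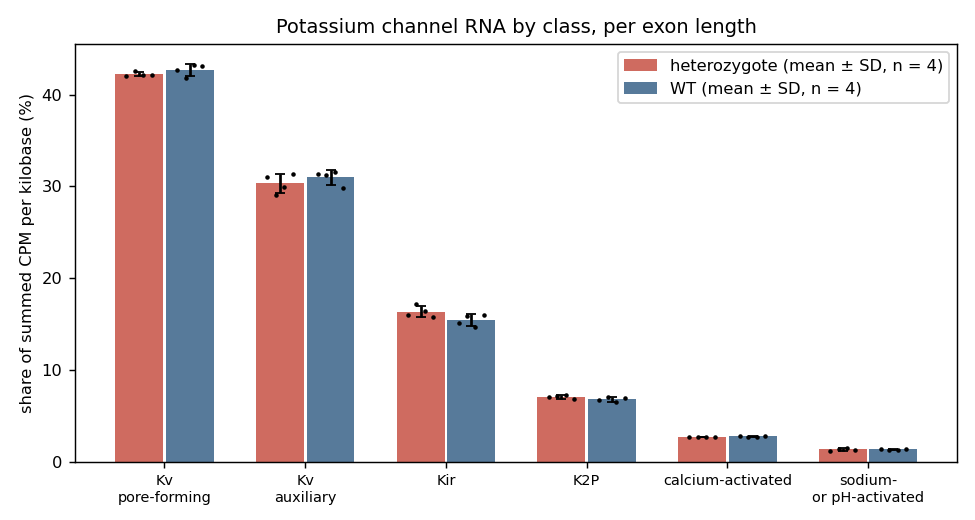
Share of the summed CPM per kilobase of the 78 tested potassium channel genes that each class gave, in percent (bars, mean; error bars, SD, n = 4 each; points, libraries). Kv pore-forming genes gave 42.2% in heterozygotes and 42.7% in WT, and in each class the genotypes lie close together.

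Between genotypes, edgeR called 2 potassium channel genes lower in heterozygotes and 0 higher. They were Kcnj3, a subunit of G-protein-gated inward rectifiers, and Kcnip4, a calcium-binding auxiliary subunit of Kcnd channels. The DESeq2 Wald test called 7 members (8.97%, against 6.63% of all genes), 5 lower (against 1.58%) and 2 higher (against 5.05%). The limma-voom test called the same 2 as edgeR (against 3.14% of all genes). The edgeR calls were 2 of 78 (2.56%) at an edgeR adjusted p of 0.05, near the share over all tested genes, which was 2.99% (535 of 17913). In the lower direction alone the share over all genes was 0.368%, and in the higher direction it was 2.62%. Both edgeR calls were lower, so the member share in that direction was also 2.56%, but it rests on 2 genes. No test of the list was run, and the count is not read as a result about potassium channel genes as a whole.

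Small differences to the lower side were frequent. Of the 78 genes, 51 (65.4%) had a log2 fold change (heterozygote over WT) below 0 and 27 above, with a median of -0.052 and quartiles of -0.129 and 0.051. Over all 17913 tested genes 52.1% lay below 0 and the median was -0.0056. Among genes with a mean of at least 10 CPM the figures were 33 of 47 (70.2%) and a median of -0.058 for potassium channel genes, against 59.0% and -0.016 for 10046 genes of all kinds. An unadjusted edgeR p under 0.05 was found for 20 members (25.6%, against 17.2% of all genes), 14 to the lower side (17.9%, against 7.11% of all genes) and 6 to the higher side (7.69%, against 10.0%). Markers of tissue next to the hippocampus also differed between the genotypes. Their summed level was higher in every heterozygote library than in any WT library, at 143 to 179 CPM in heterozygotes and 95.9 to 107 CPM in WT for 7 thalamic markers, and 109 to 194 and 86.3 to 98.5 CPM for 8 striatal ones. The same held for 6 ependymal markers, at 29.8 to 45.3 CPM in heterozygotes and 10.4 to 20.7 CPM in WT, and for 7 meningeal fibroblast markers, at 312 to 373 and 87.3 to 232 CPM. Igf2 gave most of the meningeal sum, at 229 to 271 CPM in heterozygotes and 43.1 to 156 CPM in WT. Of the 7 meningeal markers 4 did not overlap between the genotypes, while Col1a1, Slc6a13 and Slc22a6 did. None of the thalamic, striatal, ependymal and meningeal markers was at 0 in a library. Their part in the shift of the potassium channel genes was not tested. The shift was small, and 6 members (7.69%) differed by more than 0.3 on the log2 scale, against 15.2% of all genes.

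Values did not overlap between the genotypes for 11 of the 78 genes. Of these, 7 were lower in every heterozygote library (8.97%, against 3.59% of all genes), namely Kcnj3, Kcnip4, Kcnk4, Kcnh7, Kcna1, Kcns3 and Kcnc1. The other 4 were higher in every heterozygote library (5.13%, against 6.99% of all genes), namely Kcnn4, Kcnh2, Kcnj13 and Kcng3. None of the 89 genes lies on chromosome 13, where Nr2f1 is.

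**Figure D3:**
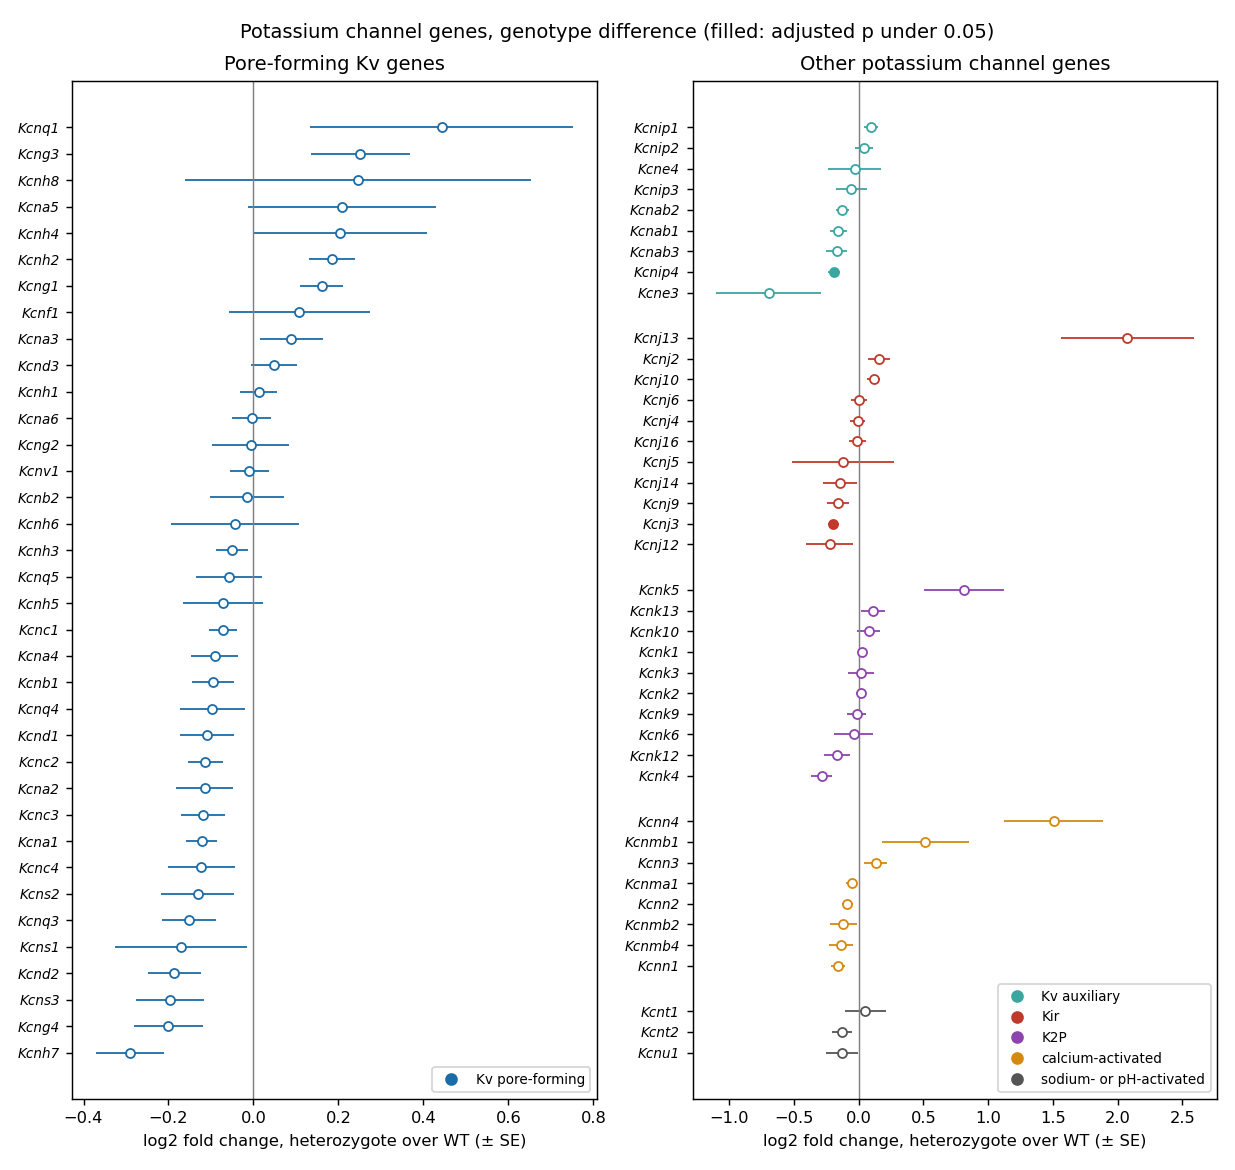
Log2 fold change (heterozygote over WT) of tested potassium channel genes with its standard error, 1 point per gene, coloured by class and filled where the edgeR adjusted p is under 0.05. The panel of Kv pore-forming genes has a narrower scale than that of the other classes; most Kv points lie below 0, K2P points lie on both sides, and Kcnj13 stands apart at 2.08.

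Kv pore-forming genes lay mostly on the lower side without a call. Of 40 such genes 37 were tested, 26 had a log2 fold change below 0 and 11 above, and the median was -0.058. An unadjusted edgeR p under 0.05 was found for 8 to the lower side and 2 to the higher side, where the shares over all genes were 7.11% and 10.0%, and 0 passed the adjusted threshold, with edgeR or with limma-voom. With the DESeq2 Wald test, which called 6.63% of all genes, 3 of these genes passed, Kcnh7 and Kcna1 lower and Kcnh2 higher (DESeq2 adjusted p = 0.00867, 0.0478 and 0.0374).

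Kcnh7, an ether-a-go-go-related channel of neurons, had 56.85, 67.94, 51.11 and 62.45 CPM in heterozygote libraries 1 to 4 and 72.04, 73.15, 68.17 and 77.92 CPM in WT libraries 1 to 4. Each heterozygote library lay below each WT library, though heterozygote library 2 came within a fraction of a CPM of WT library 3. The log2 fold change was -0.29 ± 0.0802 (SE; edgeR adjusted p = 0.0915). Among odd-numbered libraries it was -0.37 (edgeR adjusted p = 0.0249) and among even-numbered ones -0.21 (edgeR adjusted p = 0.275), and without heterozygote library 2 it was -0.36 (edgeR adjusted p = 0.0260). Exons of Kcnh7 share 4.57% of their bases with Gca on the opposite strand, and the library kit does not mark strand.

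The related Kcnh2, the channel of the rapid delayed rectifier in heart, went the other way. It had 35.65, 36.78, 39.44 and 38.43 CPM in heterozygotes and 30.15, 34.22, 32.35 and 35.53 CPM in WT libraries. Heterozygote library 1 and WT library 4 were nearly equal, and the groups did not overlap. The log2 fold change was 0.18 ± 0.0533 (SE; edgeR adjusted p = 0.0845), and it passed without WT library 4, at 0.23 (edgeR adjusted p = 0.0358). It was 0.28 among odd-numbered libraries (edgeR adjusted p = 0.105) and 0.11 among even-numbered ones (edgeR adjusted p = 0.683). Without WT libraries 1 and 3, those with the lowest choroid plexus markers, it was 0.11 (edgeR adjusted p = 0.534). With a choroid plexus score (the mean log2 level of 12 marker genes) in the model it was 0.041 (edgeR adjusted p = 0.951). The score, centred over the 8 libraries, was 1.10 to 1.32 in heterozygotes and -3.27 to 0.313 in WT. It did not overlap between the genotypes, so a fit with the score cannot tell its part from that of genotype. Of the 8 tested Kcnh genes, 4 lay below 0 and 4 above.

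Kcna1 had 229.6, 228.2, 206.7 and 225.9 CPM in heterozygote libraries and 239.7, 239.6, 245.9 and 243.3 CPM in WT libraries. Heterozygote library 3 stood below the other heterozygotes, and the WT libraries lay close together above them all. The log2 fold change was -0.12 ± 0.0370 (SE; edgeR adjusted p = 0.100), with -0.15 among odd-numbered libraries and -0.089 among even-numbered ones (edgeR adjusted p = 0.314 and 0.642).

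Other Kv members are named here after their values were seen. All 4 Kcnc genes, whose fast channels let neurons fire at high rates, had values below 0, with a median of -0.116 and edgeR adjusted p of 0.170 to 0.479. Among them Kcnc2 averaged 129.8 ± 6.91 CPM in heterozygotes and 140.4 ± 4.57 CPM in WT. All 3 Kcns genes, silent subunits that modify Kcnb channels, also had values below 0, with a median of -0.170. Kcns3 averaged 8.82 ± 0.942 CPM in heterozygotes and 10.1 ± 0.379 CPM in WT (edgeR adjusted p = 0.219). The 4 Kcng genes, further silent subunits, were mixed: Kcng3 and Kcng1 had values of 0.25 and 0.16 (edgeR adjusted p = 0.297 and 0.115), and Kcng2 and Kcng4 -0.0067 and -0.20 (edgeR adjusted p = 0.981 and 0.222).

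**Figure D4:**
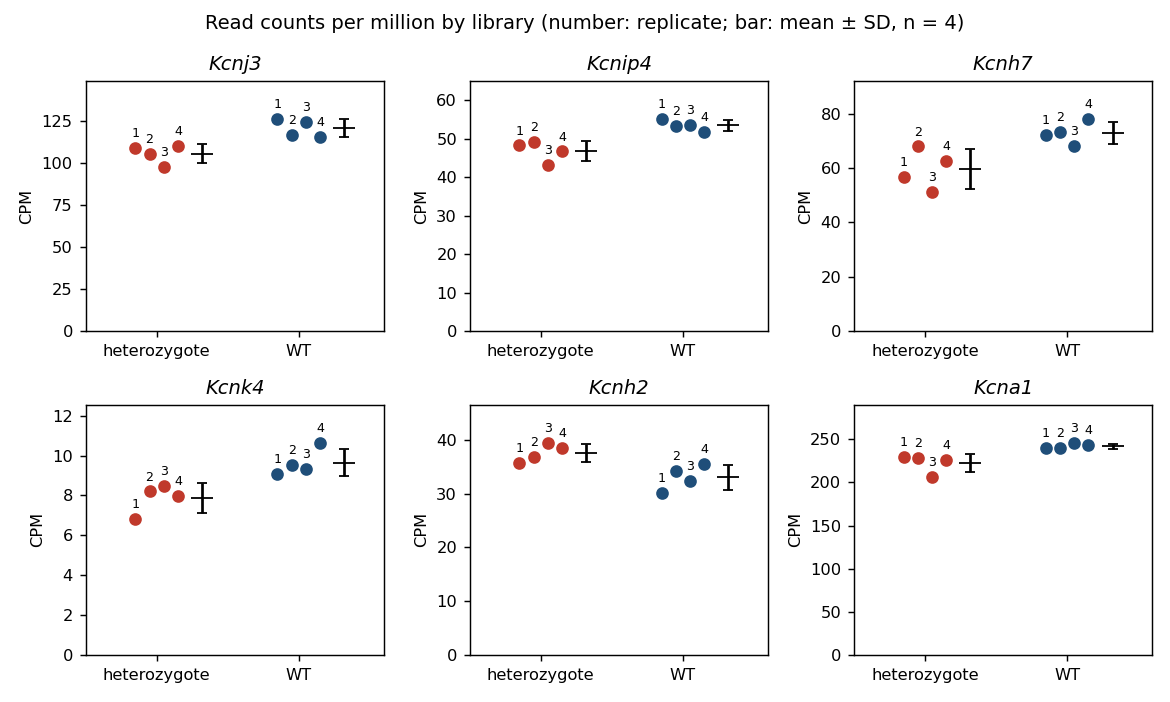
CPM of 6 potassium channel genes in each library (points, with the replicate number), heterozygotes left of WT, with group means and SD as bars (n = 4 each). Kcnj3, Kcnip4, Kcnh7, Kcnk4 and Kcna1 lie lower in every heterozygote library than in any WT library, and Kcnh2 lies higher.

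Among Kv auxiliary genes, edgeR called Kcnip4 lower. It had 48.22, 49.11, 43.05 and 46.67 CPM in heterozygote libraries 1 to 4 and 55.02, 53.25, 53.64 and 51.66 CPM in WT libraries 1 to 4. Every heterozygote library lay below every WT library, and heterozygote library 3 was the lowest. The mean was 46.8 ± 2.67 CPM in heterozygotes and 53.4 ± 1.38 CPM in WT (SD, n = 4 each), 87.5% of WT. The log2 fold change was -0.19 ± 0.0440 (SE; edgeR adjusted p = 0.0366). Among odd-numbered libraries it was -0.25 (edgeR adjusted p = 0.124) and among even-numbered ones -0.13 (edgeR adjusted p = 0.543). Leaving out 1 library at a time gave edgeR adjusted p of 0.0364 to 0.120, past the threshold only without heterozygote library 2 or WT library 4. Opposite-strand genes share 4.63% and 2.73% of the exon bases of Kcnip4 (ENSMUSG00000029088.8, chromosome 5).

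The other Kv auxiliary genes did not pass the adjusted test. Of 10 such genes 9 were tested, 7 with values below 0 and 2 above, with a median of -0.128, and 3 had an unadjusted edgeR p under 0.05, all to the lower side, where the share over all genes was 7.11%. Kcnab2 had 773, 691, 703 and 797 CPM in heterozygotes and 814, 837, 830 and 759 CPM in WT libraries. The groups overlapped at heterozygote libraries 1 and 4 and WT library 4. Its log2 fold change was -0.13 ± 0.0497 (SE; edgeR adjusted p = 0.202), with -0.15 among odd-numbered libraries and -0.10 among even-numbered ones (edgeR adjusted p = 0.296 and 0.843). Kcnab1, a beta subunit that speeds inactivation, had 143.8, 133.8, 116.4 and 147.7 CPM in heterozygotes and 147.2, 153.5, 157.4 and 146.2 CPM in WT libraries. Again heterozygote library 3 was lowest and library 4 reached the WT range (log2 fold change -0.16, edgeR adjusted p = 0.243), with -0.22 among odd-numbered libraries and -0.091 among even-numbered ones (edgeR adjusted p = 0.379 and 0.779). All 3 Kcnab genes had values below 0.

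Within the Kcnd complex, members differed. Kcnd2, the main pore of the hippocampal A-type current and chosen here after its values were seen, had 150.7, 139.8, 126.2 and 158.8 CPM in heterozygotes and 166.5, 167.0, 167.5 and 153.3 CPM in WT libraries. Heterozygote library 4 lay above WT library 4, so the groups overlapped, and the log2 fold change of -0.19 did not pass (edgeR adjusted p = 0.153). It was -0.26 among odd-numbered libraries and -0.10 among even-numbered ones (edgeR adjusted p = 0.174 and 0.809). Kcnd3, chosen in the same way, had a value of 0.049 (edgeR adjusted p = 0.699). Kcnip2, far above Kcnip4 per base of exon, averaged 252 ± 20.2 CPM in heterozygotes and 245 ± 19.2 CPM in WT (SD, n = 4 each). Its log2 fold change was 0.039, with an approximate 95% interval from -0.096 to 0.175 (edgeR adjusted p = 0.827).

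Kcnj3 was the Kir gene that edgeR called lower. It had 109.1, 105.4, 97.65 and 110.1 CPM in heterozygote libraries 1 to 4 and 126.2, 117.0, 124.7 and 115.7 CPM in WT libraries 1 to 4. The groups did not overlap, and heterozygote library 3 was the lowest of the 8. The mean was 105.6 ± 5.64 CPM in heterozygotes and 120.9 ± 5.32 CPM in WT (SD, n = 4 each), 87.3% of WT. The log2 fold change was -0.20 ± 0.0445 (SE; edgeR adjusted p = 0.0354), the lowest p of the 78 genes. Kcnj3 is ENSMUSG00000026824.5 on chromosome 2, and a long noncoding gene on the opposite strand, Gm26794, shares 31.1% of its exon bases, so reads of that gene cannot be told apart from its own.

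The Kcnj3 value was -0.27 among odd-numbered libraries (edgeR adjusted p = 0.0672) and -0.11 among even-numbered ones (edgeR adjusted p = 0.558), and the difference between the mixes was not tested. Leaving out 1 library at a time gave edgeR adjusted p of 0.0277 to 0.115, and the call was lost without any 1 of the heterozygote libraries and without WT library 1 or 3. Without both of those WT libraries, which had the lowest choroid plexus markers, the log2 fold change was -0.15 for Kcnj3 and -0.17 for Kcnip4 (edgeR adjusted p = 0.342 and 0.296). With the choroid plexus score in the model it was -0.11 for Kcnj3 and -0.15 for Kcnip4 (edgeR adjusted p = 0.828 and 0.751). The score did not overlap between the genotypes, so its part and that of genotype cannot be told apart in these values.

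The partners with which Kcnj3 assembles, chosen after their values were seen, did not pass. Kcnj9 averaged 86.5 ± 12.1 CPM in heterozygotes and 96.7 ± 4.57 CPM in WT, with a log2 fold change of -0.16 (edgeR adjusted p = 0.400); it passed when heterozygote library 2 was left out. Kcnj6, the partner most used in hippocampal pyramidal cells, averaged 40.4 ± 3.66 CPM in heterozygotes and 40.2 ± 2.02 CPM in WT (SD, n = 4 each). Its log2 fold change of 0.0055 had an approximate 95% interval from -0.118 to 0.129 (edgeR adjusted p = 0.978). Kcnj5, the partner in heart, was near the bottom of the pool at 0.271 CPM in heterozygotes and 0.311 CPM in WT.

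Neuron markers also had lower values in heterozygotes. The summed level of 4 pan-neuronal markers was 3793, 3918, 3485 and 3851 CPM in heterozygote libraries 1 to 4 and 4211, 4023, 4332 and 4236 CPM in WT libraries 1 to 4. The sums did not overlap, and that of heterozygote library 3, the lowest for Kcnj3, Kcnip4, Kcna1 and Kcnh7, was again the lowest. Snap25 and Syt1 gave most of the sum and were lowest in that library. Rbfox3 was lowest in heterozygote library 2 and Tubb3 in heterozygote library 1, and Tubb3 overlapped between the genotypes. All 4 markers had values below 0, with a median of -0.13, and Snap25 and Rbfox3 passed (edgeR adjusted p = 0.0419 and 0.0396). Snap25, a synaptic vesicle fusion protein gene, had a log2 fold change of -0.20. The CA1 sums given above did not overlap either. Of the CA1 markers, Wfs1 and Mpped1 were lower in every heterozygote library. Fibcd1 overlapped, at 173 ± 20.3 CPM in heterozygotes and 167 ± 17.3 CPM in WT (SD, n = 4 each). The fourth listed marker, Pou3f1, had 0 counts in all 8 libraries. Summed interneuron markers lay between 827 and 849 CPM in heterozygotes and between 755 and 836 CPM in WT. The part of neuronal content in the Kcnj3 and Kcnip4 differences was not tested.

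Kcnj13 had the largest fold of the 78 tested genes and did not pass the adjusted test. It encodes an inward rectifier of the apical membrane of choroid plexus and other transporting epithelia. It had 7.49, 10.2, 7.43 and 7.38 CPM in heterozygote libraries 1 to 4 and 0.307, 2.42, 0.727 and 3.95 CPM in WT libraries 1 to 4. The heterozygotes lay close together above the WT libraries, which spread over more than a factor of 10. The mean was 8.13 ± 1.39 CPM in heterozygotes and 1.85 ± 1.67 CPM in WT (SD, n = 4 each), and the log2 fold change was 2.08 ± 0.512 (SE; edgeR adjusted p = 0.0944). It was 3.84 among odd-numbered libraries (edgeR adjusted p = 0.000415) and 1.46 among even-numbered ones (edgeR adjusted p = 0.152). Without WT libraries 1 and 3 it was 1.34 (edgeR adjusted p = 0.0333), and without WT library 4 it was 2.77 (edgeR adjusted p = 0.0298).

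Markers of the choroid plexus ranked the WT libraries as Kcnj13 did, and the heterozygote libraries nearly so. The summed level of 12 such markers, all detected in every library, was 5785, 6513, 5646 and 5724 CPM in heterozygote libraries 1 to 4 and 219, 2188, 756 and 2999 CPM in WT libraries 1 to 4. WT library 1 was lowest, then 3, 2 and 4, the same order as Kcnj13, and heterozygote library 2 was highest in both. Among heterozygotes the marker sum was lowest in library 3, and Kcnj13 was lowest in library 4. All 12 markers were higher in every heterozygote library, by a median of 1.81 on the log2 scale, and 0 passed the adjusted edgeR test, while 11 had an unadjusted p under 0.05 and the DESeq2 Wald test called 5. With the mean marker level as a covariate, the log2 fold change of Kcnj13 was 0.066 (edgeR adjusted p = 0.982). That covariate removed nearly all calls, leaving 1 gene of 17913, which was Nr2f1. The covariate did not overlap between the genotypes, so its part and that of genotype cannot be told apart. Kcnj13 (ENSMUSG00000079436.3, chromosome 1) shares 49.1% of its exon bases with Gigyf2 on the opposite strand, and Gigyf2 averaged 93.1 ± 2.25 CPM in heterozygotes and 95.2 ± 1.79 CPM in WT (edgeR adjusted p = 0.656).

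**Figure D5:**
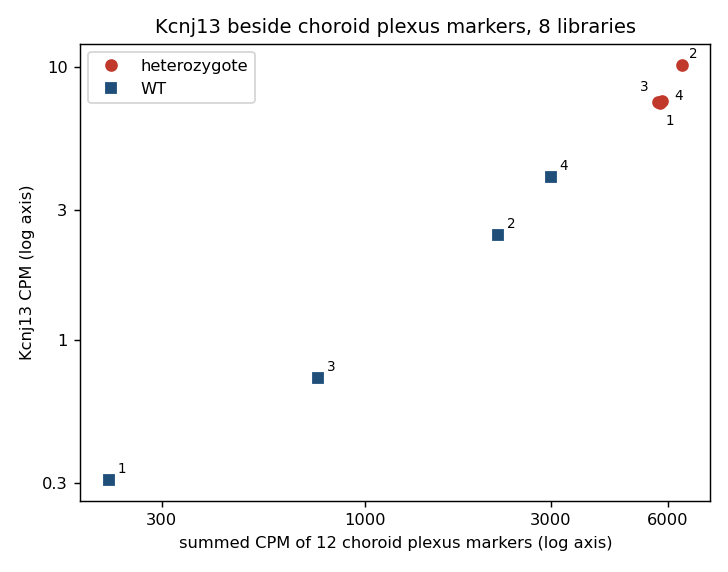
Kcnj13 CPM against the summed CPM of 12 choroid plexus markers, both on log axes, 1 point per library with its number. WT libraries spread from 0.307 to 3.95 CPM of Kcnj13 as the markers run from 219 to 2999 CPM, and the heterozygotes group at 7.38 to 10.2 CPM.

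The remaining Kir genes did not pass. Of 13 such genes 11 were tested, 7 with values below 0 and 4 above, and the median was -0.012. Kcnj10 had 271.0, 264.9, 251.0 and 271.5 CPM in heterozygotes and 227.8, 267.9, 228.0 and 252.6 CPM in WT libraries. WT libraries 1 and 3 were low and WT library 2 reached the heterozygotes (log2 fold change 0.12, edgeR adjusted p = 0.281). The value was 0.20 among odd-numbered libraries and 0.043 among even-numbered ones (edgeR adjusted p = 0.115 and 0.903), and 0.020 without WT libraries 1 and 3 (edgeR adjusted p = 0.925). The summed myelin markers likewise were low in WT libraries 1 and 3, at 3161 and 2903 CPM, and higher in WT libraries 2 and 4, at 4315 and 4096 CPM, with heterozygotes at 3505 to 4184 CPM. Summed astrocyte markers lay between 4467 and 4727 CPM in heterozygotes and between 4810 and 5070 CPM in WT. Most of that sum was Slc1a2, at 3190 ± 76.2 CPM in heterozygotes and 3509 ± 124 CPM in WT (SD, n = 4 each). Aqp4 went the other way, at 120 ± 2.66 and 112 ± 5.07 CPM in that order. The median log2 fold change of the 6 astrocyte markers was -0.018. The part of glial content in the Kcnj10 values was not tested. Kcnj4, an inward rectifier of forebrain neurons, averaged 65.9 ± 4.18 CPM in heterozygotes and 66.3 ± 4.90 CPM in WT. The approximate 95% interval of its log2 fold change ran from -0.123 to 0.108 (edgeR adjusted p = 0.969).

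K2P genes had a median of 0.016, the 1 class median above 0, and it was -0.044 once the choroid plexus score entered the model. Of 14 such genes 10 were tested, 4 with values below 0 and 6 above, and 0 passed the adjusted edgeR test. At an unadjusted edgeR p under 0.05 there was 1 in each direction (10%), against 7.11% of all genes lower and 10.0% higher. The DESeq2 Wald test, which called 1.58% of all genes lower, called 1 member lower, Kcnk4 (DESeq2 adjusted p = 0.0212), and limma-voom called 0. Kcnk4, a channel opened by stretch and by arachidonic acid, had 6.81, 8.20, 8.48 and 7.97 CPM in heterozygotes and 9.08, 9.54, 9.34 and 10.6 CPM in WT libraries. The groups did not overlap, and the log2 fold change was -0.29 ± 0.0798 (SE; edgeR adjusted p = 0.0755), with -0.24 among odd-numbered libraries and -0.32 among even-numbered ones (edgeR adjusted p = 0.410 and 0.329). Kcnk4 shares 13.2% of its exon bases with Catsperz on the same strand, so the counting could split or drop reads there. Catsperz averaged 3.57 ± 0.514 CPM in heterozygotes and 3.60 ± 0.140 CPM in WT (edgeR adjusted p = 0.993).

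Kcnk5, an acid-sensitive channel of epithelia, was rare. It had 0.425, 0.727, 0.752 and 0.481 CPM in heterozygotes and 0.253, 0.242, 0.313 and 0.556 CPM in WT libraries. WT library 4 lay within the heterozygote range, and the other WT libraries lay below it (log2 fold change 0.82, SE 0.308, edgeR adjusted p = 0.187). It was 1.13 among odd-numbered libraries and 0.58 among even-numbered ones (edgeR adjusted p = 0.253 and 0.826), and 0.28 ± 0.474 (SE) with the choroid plexus score in the model (edgeR adjusted p = 0.952). The abundant K2P genes differed little between genotypes. Kcnk1 averaged 95.3 ± 1.91 CPM in heterozygotes and 93.6 ± 2.82 CPM in WT. The approximate 95% interval of its log2 fold change ran from -0.041 to 0.091 (edgeR adjusted p = 0.760). Kcnk2, a mechanosensitive leak channel, averaged 33.1 ± 0.400 CPM in heterozygotes and 32.8 ± 1.06 CPM in WT, with an interval from -0.060 to 0.091 (edgeR adjusted p = 0.884). Kcnk12 averaged 5.74 ± 0.370 CPM in heterozygotes and 6.44 ± 0.938 CPM in WT (SD, n = 4 each; edgeR adjusted p = 0.446).

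Of the 9 calcium-activated genes 8 were tested and 0 passed the edgeR adjusted threshold; 5 had values below 0 and 3 above, with a median of -0.071. An unadjusted edgeR p under 0.05 was found for 1 in each direction (12.5%), Kcnn1 lower and Kcnn4 higher, and limma-voom called 0. At that unadjusted p the shares over all genes were 7.11% lower and 10.0% higher. Kcnn1, a small-conductance channel of neurons, had 17.43, 18.89, 17.04 and 17.30 CPM in heterozygotes and 19.45, 20.17, 18.65 and 20.72 CPM in WT libraries. Heterozygote library 2 lay above WT library 3, and the other heterozygotes lay below all WT libraries (log2 fold change -0.16, SE 0.0522, edgeR adjusted p = 0.120). The value was -0.14 among odd-numbered libraries and -0.18 among even-numbered ones (edgeR adjusted p = 0.445 and 0.552). Kcnn2, the small-conductance subunit of hippocampal spines, averaged 81.0 ± 4.67 CPM in heterozygotes and 86.1 ± 2.72 CPM in WT (edgeR adjusted p = 0.319). Kcnma1, the pore of the large-conductance channel, averaged 93.1 ± 5.59 CPM in heterozygotes and 96.6 ± 2.27 CPM in WT (SD, n = 4 each). Its log2 fold change of -0.053 had an approximate 95% interval from -0.138 to 0.033 (edgeR adjusted p = 0.584).

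Kcnn4, the intermediate-conductance channel of blood and epithelial cells, was the rarest tested member per base of exon. It had 14, 12, 22 and 22 read counts in heterozygote libraries 1 to 4 and 6, 10, 4 and 6 in WT libraries 1 to 4. The groups did not overlap in CPM, at 0.226 ± 0.0523 in heterozygotes and 0.0780 ± 0.0276 in WT (SD, n = 4 each). The log2 fold change was 1.51 ± 0.385 (SE; edgeR adjusted p = 0.0557), with 1.88 among odd-numbered libraries and 1.21 among even-numbered ones (edgeR adjusted p = 0.189 and 0.656). It passed with the DESeq2 Wald test (DESeq2 adjusted p = 0.0485), and at this depth a count of 3 corresponds to 0.0332 to 0.0510 CPM by library, so the 4 counts of WT library 3 lie close to what a count of 0 allows.

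The 3 sodium- or pH-activated genes had 0 calls with edgeR, DESeq2 or limma-voom and 0 with an unadjusted edgeR p under 0.05. Kcnt2 averaged 27.1 ± 2.93 CPM in heterozygotes and 29.6 ± 2.23 CPM in WT (edgeR adjusted p = 0.438), and Kcnu1, best known from sperm, 2.81 ± 0.345 CPM and 3.05 ± 0.315 CPM (edgeR adjusted p = 0.647). Kcnt1, a sodium-activated channel of neurons, had 51.57, 73.53, 86.58 and 63.18 CPM in heterozygotes and 70.12, 67.13, 58.01 and 70.68 CPM in WT libraries. Both the highest and the lowest value were in heterozygotes (SD 14.9 CPM, and 5.86 CPM in WT). The approximate 95% interval of the Kcnt1 log2 fold change of 0.052 ran from -0.266 to 0.370 (edgeR adjusted p = 0.912). It was 0.13 among odd-numbered libraries and -0.012 among even-numbered ones (edgeR adjusted p = 0.919 and 0.989).

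A wide spread among heterozygotes was shared by a few further members, chosen after their values were seen. Kcnf1, a silent Kv subunit, had 52.1, 72.5, 79.6 and 50.9 CPM in heterozygotes and 64.1, 53.8, 55.5 and 63.9 CPM in WT libraries. Kcnip3, a Kcnd partner that also acts as a transcriptional repressor, had 57.1, 76.3, 67.5 and 54.7 CPM in heterozygotes and 73.8, 64.2, 57.9 and 70.6 CPM in WT libraries. In both genes heterozygote libraries 2 and 3 were high and libraries 1 and 4 low, as they were in Kcnt1. Over the 47 tested members of at least 10 CPM the median coefficient of variation was 6.87% in heterozygotes and 5.26% in WT, against 4.32% and 4.0% over all genes of that level.

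Heterozygote library 3 was the lowest of the 8 libraries for 20 of the 78 members (25.6%), against 17.1% of all tested genes. It was the lowest for 11 of 37 Kv pore-forming genes and 4 of 9 Kv auxiliary genes, and for 0 of 10 K2P genes. It also was the highest of the 8 for 13 members. Without this library 0 members passed, as was so without heterozygote library 1 or 4 or WT library 1 or 3, and the median log2 fold change was -0.055, beside -0.052 with it.

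Proteins that anchor, traffic or assemble with potassium channels also lay mostly to the lower side. Of 20 such genes 19 were tested, 16 with values below 0 (84.2%, against 52.1% of all genes) and 3 above, with a median of -0.059. At 10 CPM or more, 94.1% of them lay below 0, against 59.0% of all genes of that level. Of the 19 genes 0 passed the edgeR adjusted threshold. An unadjusted edgeR p under 0.05 was found for 3 (15.8%), all to the lower side. The share over all genes was 7.11% to that side and 17.2% in either direction. Akap5, a scaffold that holds kinases near membrane channels, averaged 80.6 ± 2.60 CPM in heterozygotes and 88.1 ± 3.25 CPM in WT (edgeR adjusted p = 0.0868). Adam22, an axonal receptor of Lgi1 found with Kcna channels, averaged 225 ± 5.01 CPM in heterozygotes and 241 ± 4.94 CPM in WT (edgeR adjusted p = 0.111). Abcc8, the sulfonylurea receptor of ATP-sensitive channels, averaged 44.5 ± 2.64 CPM in heterozygotes and 49.8 ± 2.78 CPM in WT (SD, n = 4 each; edgeR adjusted p = 0.118). The DESeq2 Wald test called 2 of the 19, Akap5 and Adam22, both lower. It called 1.58% of all genes lower and 6.63% in either direction. With limma-voom 0 of the 19 were called.

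The potassium channel median minus the median of all genes was -0.046 on the log2 scale and lay between -0.074 and -0.025 over the 20 alternative scalings, filters, tests and library subsets.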

How the data were processed

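The authors deposited raw read counts per Ensembl gene and per ERCC spike-in for 8 hippocampal libraries. The submitters' processing notes name STAR 2.4.2a, HTSeq, DESeq2 and FastQC, and the builds mm9 and NCBIM37; what each did, the annotation and any use of strand are not given here. The kit in the labels' protocols primes amplification at poly(A) tails and at random positions and does not mark strand.

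The 92 spike-ins stayed out of library sizes and tests. GENCODE M21 (GRCm38) gave symbols for 32620 of 37310 genes, chromosomes, exon overlaps and exon lengths. RefSeq gave the start-site windows. Counts were scaled by TMM and filtered with filterByExpr (minimum count 10, total 15), which left 17913 genes. The robust quasi-likelihood F test of edgeR 4.0.16 in R 4.3.3 compared genotypes, two-sided, adjusted by Benjamini-Hochberg over all tested genes, with calls at 0.05. Each standard error is the fitted log2 difference over the square root of F. CPM uses the TMM library size. The step was tested on simulated data with 200 changed genes. It recovered 47.8% of those changed by 0.3 on the log2 scale, 77.6% at 0.6 and 77.3% at 1. Of its calls 4.93% were false. A member that did not pass may thus still differ. A count of 0 allows up to 3 counts; this limit covers counting error only, since reads carried no molecular identifiers. No 2 libraries of a genotype were duplicates: chi-square values per degree of freedom were 7.42 to 25.0.

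Members, classes and lists were chosen with earlier results of these data known, and lists are described by counts and medians with no test. Nr2f1, each called member, and from each class the 3 members with the lowest p and the 2 with the highest level per length are named; any other member is marked as picked with its values in view. Some genes that this rule or a list chose are not reported here. Of the members 11 had at most 9 counts in any library and were not tested.

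Alternatives were DESeq2 size factors, upper quartile and spike-in scaling, other count filters, the DESeq2 1.42.0 Wald test, limma-voom 3.58.1, leaving out each library, a block for the replicate number, each spike-in mix alone, a choroid plexus score as covariate, and WT libraries 1 and 3 left out. The score was higher in every heterozygote library than in any WT library, so fits with it cannot separate it from genotype.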

Additional observations from a re-analysis of the deposited data

Results flagged for a closer look

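Kcna1 in heterozygotes had a library far from the others. Library 3 had 206.7 CPM, while the other heterozygote libraries had 225.9 to 229.6 CPM, and the gap took up more of the range than Dixon's 95% limit for 4 samples allows. Summed pan-neuronal markers were also lowest in that library, at 3485 CPM. Kcnj13 in heterozygotes had a library far to the higher side. Library 2 had 10.2 CPM, while the others had 7.38 to 7.49 CPM, and summed choroid plexus markers were highest in that library as well, at 6513 CPM. These were 2 of 50 groups examined in this way, and chance flags about 1 in 20.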

How the results depend on the processing

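Kcnj3 and Kcnip4 kept a lower value under all 20 alternatives, and each was called in 9 of the 21 settings, the reported one included. The edgeR, DESeq2 or limma-voom adjusted p ran from 0.00320 to 1 for Kcnj3 and from 0.00491 to 1 for Kcnip4. Both calls held with DESeq2 size factors, upper quartile scaling, either other count filter, the DESeq2 Wald test and limma-voom. Of the 22 named genes that were not called, 8 changed sign under at least 1 alternative, and 13 of their 438 values over the alternatives were called.

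Members called higher numbered 1 with spike-in scaling, 2 with the DESeq2 Wald test, 1 among odd-numbered libraries and 1 without WT libraries 1 and 3. Members called lower numbered 0 with spike-in scaling, 5 with DESeq2, 1 among odd-numbered libraries, 0 among even-numbered ones, 0 with the choroid plexus score and 0 without WT libraries 1 and 3. Calls over all genes numbered 259 with spike-in scaling, which rested on 5 spike-ins, 1188 with DESeq2, 78 among even-numbered libraries, 1 with the choroid plexus score and 170 without WT libraries 1 and 3. With spike-in scaling Nr2f1 itself was not called (edgeR adjusted p = 0.240). Leaving out 1 library at a time gave 171 to 767 calls over all genes, 0 to 2 members higher and 0 to 3 lower.

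The median log2 fold change of the members was -0.026 with spike-in scaling, -0.034 among even-numbered libraries and -0.030 with the choroid plexus score, and -0.076 to -0.024 with 1 library left out. That of the Kv pore-forming genes was -0.033 among even-numbered libraries, -0.035 with the score and -0.077 to -0.046 with 1 library left out. The Kv auxiliary median lay between -0.167 and -0.100 and the Kir median between -0.056 and 0.025 with 1 library left out. The K2P median was 0.076 among odd-numbered libraries, -0.044 with the score and 0.0029 to 0.042 with 1 library left out. The calcium-activated median was -0.104 with the 1 CPM filter, -0.040 among even-numbered libraries, -0.019 with the score and -0.077 to -0.053 with 1 library left out. The sodium- or pH-activated median was -0.012 among even-numbered libraries, 0.029 with the score and -0.169 to -0.068 with 1 library left out. The cause of these moves was not tested.

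With the replicate block, Kcnh7 was the 1 member called (log2 fold change -0.30, edgeR adjusted p = 0.0251), and Kcnj3 and Kcnip4 were not (edgeR adjusted p = 0.0814 and 0.0664). Calls over all genes then numbered 406, beside 535. Libraries of the same number did not deviate together, with correlations of 0.025, -0.048, -0.088 and -0.080, so the numbers were not taken to pair animals. For members of a few counts, such as Kcnn4, depth limits what can be seen.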
